A study of Mus musculus with 7 samples.

Results

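The 35 genes described here are the transcription factor p53 (Trp53), its main ubiquitin ligase, a set of genes that p53 is known to switch on, and the proteins that start, carry or hold back apoptosis. They were chosen by symbol from a list drawn up with earlier results of these data known. All 35 were found among the 47729 genes of the deposited table, 1 row each. Gene expression had been measured by RNA sequencing in surface ectoderm of mouse embryos at stage E12.5, cut by laser from frozen head sections in the stretch between eye and brain. There were 4 miR-205 knockout libraries (replicates 1 to 4) and 3 wild type libraries (replicates 2 to 4), each from a pool of 3 embryos; a further wild type library, which the submitters set aside for captured neighbouring tissue, was not analysed here. The strain and the deleted allele are not given in the sources used here.

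When DNA is damaged or growth control fails, p53 escapes Mdm2 and turns on genes that halt the cell cycle, repair DNA or kill the cell. In the mitochondrial pathway of apoptosis, BH3-only proteins neutralise the pro-survival BCL2 family members, BAX and BAK open the outer mitochondrial membrane, and released cytochrome c assembles with APAF1 and caspase-9 into the apoptosome. Death receptors reach the same end through caspase-8, and inhibitor-of-apoptosis proteins such as XIAP block the caspases until DIABLO releases them. During head development this machinery shapes the neural tube, the face and the eye. miR-205 is a microRNA of stratified epithelia, and a microRNA lowers messages whose 3′ UTR pairs with its seed, bases 2 to 8.

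The sequence that was lost in the knockout is shown first, followed by the matches to it among the 35 genes. These genes were chosen with earlier results of these data known, so the share with a match is no test of the set. The seed of miR-205-5p is in capitals (RefSeq, GRCm38.p6).
mmu-miR-205-5p: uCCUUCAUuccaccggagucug
A message pairs with this seed through ATGAAGG, called an 8mer where an A follows and a 7mer-m8 where it does not. The longest annotated 3′ UTR (GENCODE M21, GRCm38) held such a match in 9 of the 35 genes (25.7%), against 1681 of 13541 tested genes with a 3′ UTR of at least 30 nt (12.4%). The 35 genes also had longer 3′ UTRs, with a median of 1845 nt against 1239 nt over all tested genes, and the 9 carried 1 match each. An 8mer was found in Zmat3, Trp53inp1 and Pmaip1. A 7mer-m8 was found in Aen, Bcl2, Mcl1, Apaf1, Casp2 and Birc2. The sites below stand in the message strand with the matched bases in capitals. They are those of the death platform gene Apaf1, of both pro-survival genes with a match, and of 2 p53 target genes with an 8mer.
Apaf1, 7mer-m8, chr10:90989442-90989470, minus strand: actttgtatatATGAAGGtggttttatat
Bcl2, 7mer-m8, chr1:106539455-106539483, minus strand: ttgtcgggcccATGAAGGctctgatctga
Mcl1, 7mer-m8, chr3:95660887-95660915, plus strand: catgtgtatttATGAAGGtggacttgaag
Zmat3, 8mer, chr3:32338153-32338182, minus strand: cctggaaatggATGAAGGAccgtggtggct
Trp53inp1, 8mer, chr4:11173226-11173255, plus strand: caaaagtatgtATGAAGGActacaactaga
The site of Apaf1 begins at base 1991 of a 3′ UTR of 2139 nt, near its end, whereas that of Mcl1 begins at base 75 of 2353 nt. A match describes letters in the annotation and does not show binding.

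Promoter windows were searched for the p53 response element, which is made of 2 adjoining decamers. With the C and G of each decamer kept and at most 2 other mismatches, the window from 250 bases before to 50 bases after the start site held an element in 2 of the 30 genes with a RefSeq window (6.67%), against 106 of 27025 genes (0.392%). The element reads the same on both strands, so 1 search covers both. Both genes, Ccng1 and Cdkn1a, are long-known p53 targets, and their elements are shown with the cores of the decamers in capitals.
Ccng1, chr11:40755462-40755481, minus strand: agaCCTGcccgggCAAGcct
Cdkn1a, chr17:29090928-29090947, plus strand: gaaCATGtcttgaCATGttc
They begin 195 and 51 bases before an annotated start site, each with 1 mismatch (GRCm38.p6). Elements farther away, which several of these genes are known to use, lie outside the window.

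Values are the authors' normalized counts, that is, reads per gene divided by 1 factor per library, and the libraries held between 8903523 and 12504790 recovered reads. Differences are log2(normalized count + 1) in knockout minus wild type, tested by limma-trend in 15029 genes whose mean reached 10 normalized counts, all 35 members among them. Bik, a BH3-only gene, alone reached that mean in 1 group only, with 13.5, 19.8, 3.54 and 13.1 in knockout, against 12.2, 7.74 and 5.61 in wild type. All 21 markers of surface ectoderm were detected. Their mean log2 value was between 9.66 and 10.41 in knockout and between 10.24 and 10.46 in wild type, with the lowest values in knockout libraries 1 and 2. Genes of other cells were present in both groups, some lists with mean values as high or higher. Such a mean also depends on which genes a list holds, so it does not give the share of a tissue. The mean log2 value of 11 mesenchymal genes was 10.37 to 11.01 in knockout and 10.20 to 10.56 in wild type. In knockout libraries 1 and 2 it was 11.01 and 10.81, against 9.66 and 9.74 for the ectoderm markers. That of 13 erythroid genes was 10.2 to 11.5 in knockout and 10.4 to 12.4 in wild type. The mean log2 value of 15 neural genes was 7.87 to 8.47 in knockout and 4.84 to 8.05 in wild type, with the lowest value in wild type library 3, and that of 12 endothelial genes was 6.57 to 8.10 in knockout and 6.28 to 6.68 in wild type. Mean log2 values were higher in knockout for 15 of 15 neural, 12 of 12 endothelial, 10 of 10 macrophage, 8 of 11 mesenchymal and 8 of 9 skeletal muscle genes, and lower for 21 of 21 ectoderm and 13 of 13 erythroid genes. None of these genes was called by limma-trend (background 0%). At an unadjusted p under 0.05, 5 of 15 neural, 5 of 12 endothelial, 3 of 10 macrophage and 4 of 11 mesenchymal genes were higher (background 5.44%). Lower were 2 of 21 ectoderm genes (background 4.34%), and no other of these genes reached that p. The authors' deposited table called 4 of 12 endothelial genes (Pecam1, Eng, Emcn and Esam) and 1 of 13 neural genes with an adjusted p (Nes). All were higher (background 1.43%). It called none of the ectoderm, macrophage, erythroid, mesenchymal or skeletal muscle genes. Their part in the differences below was not tested except where values are given. In such bulk samples, fewer cells of a type and less RNA per cell cannot be told apart.

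In knockout ectoderm the p53 and apoptosis genes went both ways, and no test of them as a group was made. The median log2 difference of the 35 genes was -0.041, against 0.0098 over all genes tested; 14 had higher and 21 lower mean log2 values in knockout, where 51.7% of all genes had higher ones. At an adjusted p of 0.1, limma-trend called 0 members (background 0%), and the same held for edgeR on recovered reads (0%). DESeq2 on recovered reads called 2 of the 34 members to which it gave an adjusted p (background 1.52%), as did the authors' deposited table for 2 of 31 (background 2.83%). In both the called genes were Apaf1, higher in knockout, and Ccng1, lower in knockout. The authors also used DESeq2, and the recovered reads come from their table, so the 2 results are not separate support. Among all genes with an adjusted p, DESeq2 on recovered reads called 0.748% as higher and 0.768% as lower. The shares called in the authors' deposited table were 1.43% as higher and 1.4% as lower. At an unadjusted p under 0.05 there were 6 members (background 9.77%). Of these 4 were higher (background 5.44%), namely Apaf1, Bok, Pmaip1 and Mdm2, and 2 were lower (background 4.34%), namely Ccng1 and Cycs. Every knockout library lay above every wild type library in 4 members (background 4.7%) and below in 3 (background 5.22%), so that the groups did not overlap in 7 of 35 members, or 20%, against 9.92% of all genes. As the members were chosen with earlier results of these data known, a share above the background is no test of the set. The smallest adjusted p among members was 0.312, for Apaf1, and the smallest over all genes was 0.127.

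**Figure D1:**
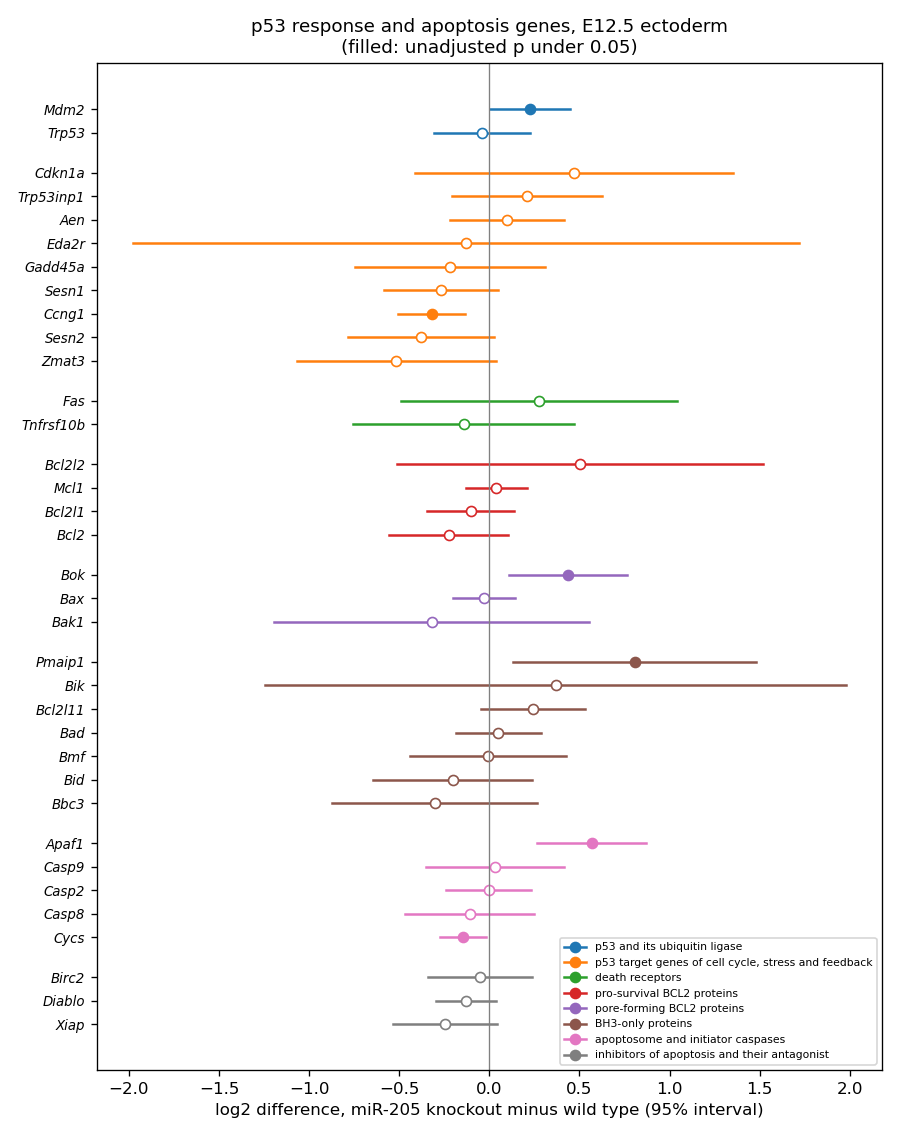
The log2 difference of each of the 35 genes (x axis, knockout minus wild type) is drawn with its 95% interval from limma-trend, in colours by role; filled points have an unadjusted p under 0.05. Most intervals span 0, with Apaf1, Pmaip1, Bok and Mdm2 to the right of it and Ccng1 and Cycs to the left.

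The gene for p53 itself did not differ between groups beyond its spread. Trp53 had 2047, 1791, 2072 and 2438 normalized counts in knockout libraries 1 to 4, against 1863, 2475 and 2108 in wild type libraries 2 to 4. The groups overlapped throughout, and the log2 difference was -0.04 with a 95% interval from -0.31 to 0.23 (adjusted p 0.925). Mdm2, which marks p53 for destruction and is at the same time its target, had 643, 684, 624 and 663 in knockout, against 613, 514 and 552 in wild type. All 4 knockout libraries were above all 3 wild type libraries, by a log2 difference of 0.23 (SE 0.10, unadjusted p 0.046, adjusted p 0.498). Leaving out 1 library at a time gave 0.17 to 0.29.

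Among p53 target genes of the cell cycle and stress response, no common direction appeared. Of 9 such members, 3 had higher and 6 lower mean log2 values in knockout, and their median log2 difference was -0.22. Ccng1, which encodes cyclin G1 and helps a phosphatase restrain p53 through Mdm2, carries the first element printed above. Its normalized counts were 874, 815, 892 and 868 in knockout, against 997, 1106 and 1130.0 in wild type. Knockout lay below wild type in every library, with means of 862 ± 33.4 and 1078 ± 70.8 (SD, n = 4 and 3) and a log2 difference of -0.32 (SE 0.08, unadjusted p 0.0034, adjusted p 0.351). The authors' deposited table gives it an adjusted p of 0.0179, and DESeq2 on recovered reads 0.0748, with 0.0748 to 0.725 over all alternatives. Its difference was -0.35 within the 4 libraries of over 10000000 reads, and -0.29 without knockout libraries 1 and 2. Within the 3 others, knockout libraries 1 and 2 and the single wild type library 2, it was -0.24.

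Cdkn1a encodes p21, the inhibitor of cyclin-dependent kinases that is the standard readout of p53 activity. It had 271, 664, 317 and 197 normalized counts in knockout, against 218, 191 and 309.6 in wild type. A single knockout library, replicate 2, was far above the rest, and the other 3, at 197 to 317, overlapped the wild type range of 191 to 309.6. The log2 difference of 0.47 had a 95% interval from -0.41 to 1.35 (adjusted p 0.697), and it was 0.13 without knockout replicate 2. That library also stood apart in skeletal muscle genes, whose mean log2 value was 9.01 there, against 7.35 in knockout replicate 1 and at most 7.06 in the other libraries. It held the highest mean log2 values of the endothelial (8.10), neural (8.47) and macrophage genes (7.33) as well. The part of these tissues in its Cdkn1a level was not tested.

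Sesn2 and Sesn1 encode sestrins, which restrain growth signalling under stress. Sesn2 had 309, 245, 415 and 320.3 in knockout, against 425, 462 and 358 in wild type, with knockout replicate 3 above wild type replicate 4. Its log2 difference was -0.38 (95% interval -0.78 to 0.02), and that of Sesn1 was -0.27 (-0.59 to 0.05), with means of 634 ± 103 in knockout and 759.6 ± 85.5 in wild type. Without knockout libraries 1 and 2, which were lowest in ectoderm genes, these differences were -0.18 for Sesn2 and -0.08 for Sesn1, and Sesn1 was at -0.17 without knockout replicate 1 alone. Zmat3, an RNA-binding zinc finger gene, had 131, 146, 104 and 207 in knockout, against 169.7, 205.5 and 244 in wild type. It carries an 8mer and had lower values in 3 of 4 knockout libraries than in any wild type library, and its log2 difference was -0.52 (-1.07 to 0.04). Trp53inp1, which strengthens the death response of p53, also has an 8mer; it had 699, 890.4, 758 and 582 in knockout, against 764, 682 and 473 in wild type, and the groups overlapped (0.21, -0.21 to 0.62), with a difference of 0.0047 without wild type replicate 4 and 0.083 without knockout libraries 1 and 2. Aen, an apoptosis-linked nuclease with a 7mer-m8, had 636, 625, 717 and 911 in knockout, against 616, 649 and 743 in wild type (0.10, -0.22 to 0.41). Gadd45a, a damage response gene, averaged 154 ± 40.4 in knockout and 176 ± 28.1 in wild type. Eda2r, a receptor of the ectodysplasin family, was weakly expressed at 14.02 ± 11.6 in knockout and 12.4 ± 7.22 in wild type, with a lower mean log2 value in knockout but a difference of 0.16 with edgeR and 0.18 with DESeq2, so its direction was not settled; 19.1% of the exonic length of Gadd45a is shared with another gene.

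**Figure D2:**
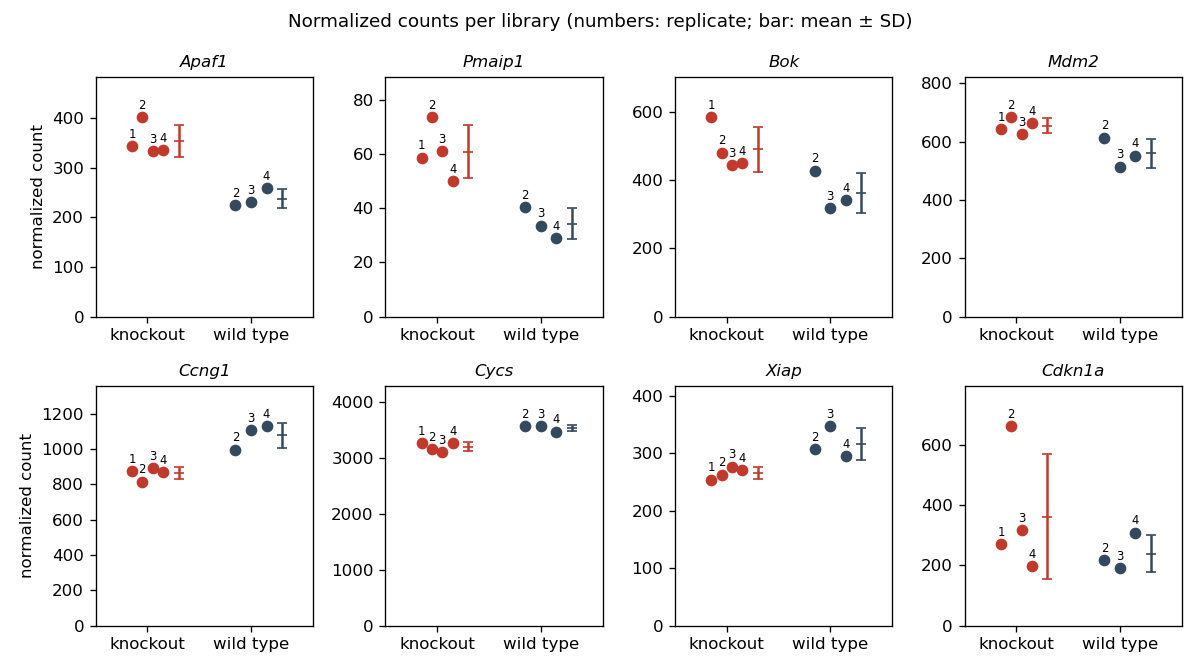
Normalized counts (y axis, from 0) of 8 genes are shown for 4 knockout (left) and 3 wild type libraries (right), numbered by replicate, with mean ± SD beside them. Apaf1, Pmaip1, Bok and Mdm2 lie higher and Ccng1, Cycs and Xiap lower in all knockout libraries, while Cdkn1a is high in knockout replicate 2 alone.

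The smallest unadjusted p of the set belonged to the apoptosome. Apaf1, the platform on which caspase-9 is activated, had 344, 402, 333 and 335 normalized counts in knockout, against 225, 230.4 and 259 in wild type. The lowest knockout library thus exceeded the highest wild type library, and the means of 354 ± 32.7 and 238 ± 18.5 (SD, n = 4 and 3) differed by 0.57 on the log2 scale (SE 0.14), a 1.48-fold level. The unadjusted p was 0.0019 and the adjusted p 0.312 by limma-trend. An adjusted p of 0.00869 stands in the authors' deposited table, and DESeq2 on recovered reads gave 0.0497, with 0.0497 to 0.712 over all alternatives. The difference lay between 0.50 and 0.63 when any 1 library was left out. It was 0.45 within libraries of over 10000000 reads and 0.73 within the 3 others, which are knockout libraries 1 and 2 and wild type library 2. The value of 0.73 thus rests on 1 wild type library, and the split by depth also sets knockout libraries 1 and 2 apart. The difference was 0.49 without knockout libraries 1 and 2, and 0.55 without wild type replicate 3, the library lowest in neural genes. The neural mean log2 value was 8.19 to 8.47 in the other 3 knockout libraries and 7.87 in knockout replicate 4, against 8.05, 4.84 and 7.22 in wild type libraries 2 to 4; the part of neural tissue in the Apaf1 difference was not tested. The 3′ UTR site printed above lies in this gene.

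**Figure D3:**
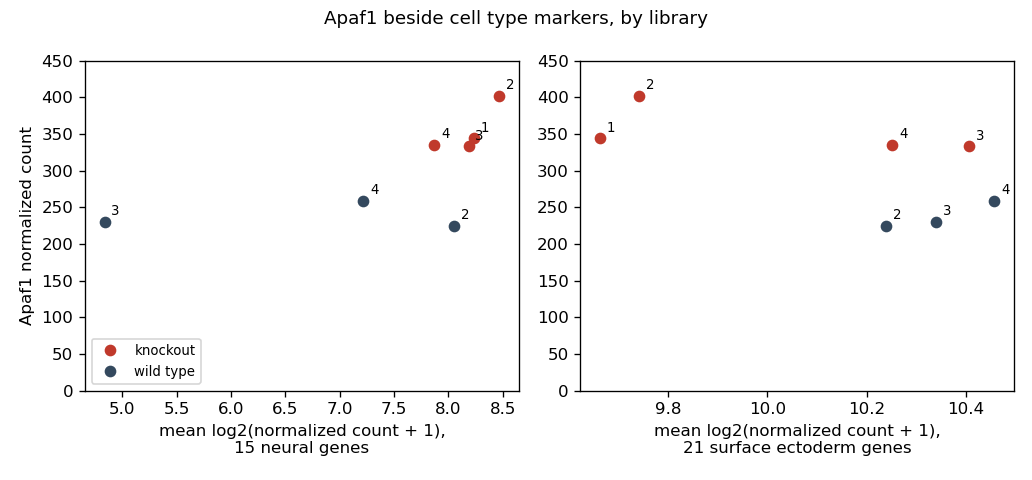
Apaf1 normalized counts (y axis) are plotted against the mean log2 value of 15 neural genes (left) and 21 surface ectoderm genes (right) for each library, numbered by replicate. Apaf1 lies at 333 to 402 in the 4 knockout libraries and at 225 to 259 in the 3 wild type libraries; the neural values run from 7.87 to 8.47 in knockout and from 4.84 to 8.05 in wild type, so the groups share only a short stretch of that axis.

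Its partners in the apoptosome did not show the same direction beyond their spread. Cycs, encoding cytochrome c, had 3263, 3151, 3097 and 3252 in knockout, against 3562, 3559 and 3465 in wild type. Here the groups were apart in the other direction, by a small step of -0.15 (SE 0.06, unadjusted p 0.028, adjusted p 0.465); processed copies of this gene exist in the mouse genome, so its counts are uncertain. Casp9, the caspase of the apoptosome, averaged 449 ± 73.3 in knockout and 441 ± 85.2 in wild type (0.03, 95% interval -0.35 to 0.41). Casp2, a caspase activated by the p53 target PIDD, carries a 7mer-m8 and had 1076, 1095, 1167 and 1301 in knockout, against 1117, 1329 and 1051 in wild type, with a log2 difference of -0.0038. Casp8, the initiator downstream of death receptors, averaged 328 ± 41.3 in knockout and 356 ± 66.2 in wild type. The receptors themselves overlapped between groups. Fas had 189.5, 145, 354 and 357 in knockout, against 151, 214 and 249 in wild type, so that knockout replicates 3 and 4 were above all wild type libraries and replicate 2 below them. Tnfrsf10b, the mouse TRAIL receptor, had 50.8, 60.5, 68.1 and 46.4 in knockout, against 62.3, 56.7 and 66.4 in wild type.

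Of the proteins that open mitochondria, Bok alone had groups that did not overlap. Bok, a BAX relative that acts without the other family members, had 586, 481, 445 and 449.9 in knockout, against 428, 318 and 341 in wild type. The gap between groups was narrow, 445 against 428, and the log2 difference was 0.44 (SE 0.15, unadjusted p 0.014, adjusted p 0.441). Bax differed little, with 1198 ± 59.7 in knockout and 1222 ± 53.3 in wild type and a narrow 95% interval from -0.20 to 0.14. Bak1 had 36.1, 29.7, 31.8 and 17.5 in knockout, against 42.7, 27.5 and 36.5 in wild type, an overlap at a low level. Per kilobase of exon, Bax averaged 766 normalized counts over all 7 libraries, Bok 237 and Bak1 13.2, so that the message of Bax was the most abundant of the 3; 25.5% of the Bak1 exonic length is shared with another gene.

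The BH3-only genes split, with higher mean log2 values in knockout in 4 and lower ones in 3, of which Bmf was at -0.008 and changed sign with edgeR and DESeq2. Among the 4 higher ones, Bik reached the mean of 10 normalized counts in the knockout group only (0.37, 95% interval -1.24 to 1.98). Pmaip1, which encodes NOXA, the antagonist of MCL1, had 58.7, 73.7, 61.0 and 49.9 in knockout, against 40.3, 33.5 and 29.0 in wild type. All knockout libraries were above all wild type libraries, and the log2 difference of 0.81 (SE 0.30, unadjusted p 0.023, adjusted p 0.449) was the largest in size among the 35 genes in this test, at a 1.75-fold level. It lay between 0.70 and 0.93 when 1 library was left out. The 8mer of Pmaip1 begins at base 136 of a 3′ UTR of 2192 nt. Bcl2l11, encoding BIM, had 527, 501, 405 and 468 in knockout, against 411, 432 and 359 in wild type; knockout replicate 3 was below 2 wild type libraries (0.24, 95% interval -0.05 to 0.53), and the difference was 0.12 without knockout libraries 1 and 2. Bbc3, encoding the p53 target PUMA, averaged 94.7 ± 22.2 in knockout and 115 ± 14.3 in wild type (-0.30, -0.88 to 0.27), and its difference was -0.14 without knockout replicate 1 and -0.04 without knockout libraries 1 and 2. Bid averaged 273 ± 64.7 in knockout and 309 ± 32.4 in wild type, Bad 587 ± 46.5 and 566 ± 36.4, and Bmf 362 ± 87.6 and 358 ± 46.2. None of the 3, nor the weakly expressed Bik, had groups that stood apart.

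**Figure D4:**
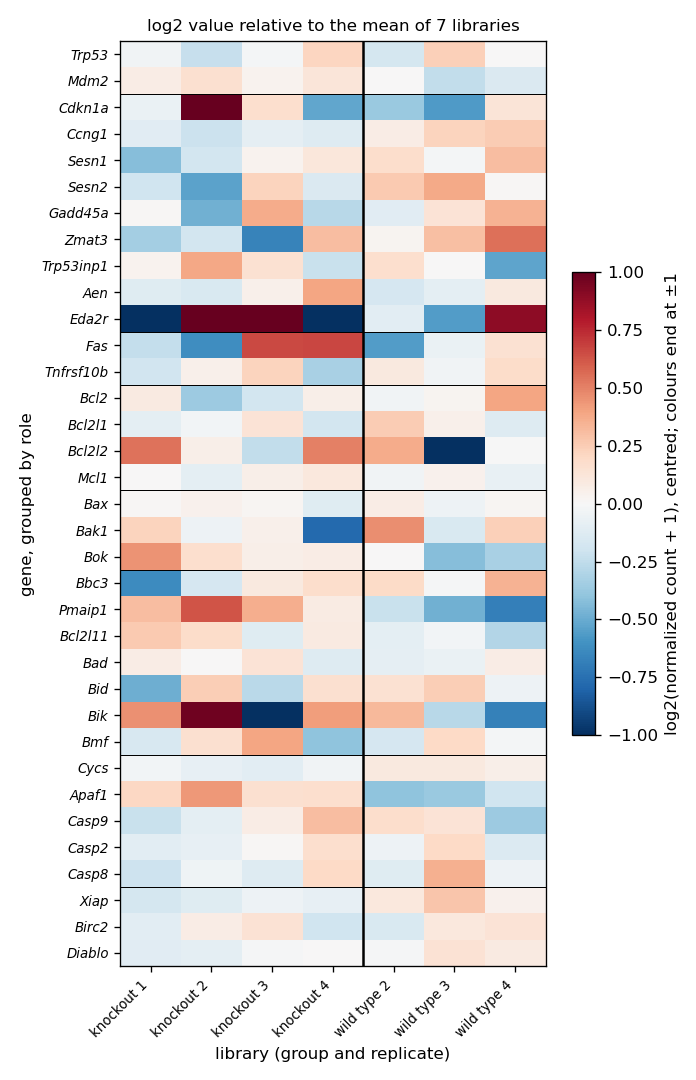
Colours give log2(normalized count + 1) of each gene (rows, by role) in each library (columns, knockout left of the line, wild type right), relative to the gene's mean over 7 libraries. Rows with 1 colour per side, such as Apaf1 and Ccng1, are few, and most rows vary within both groups.

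Pro-survival genes showed no difference beyond their spread. Bcl2 had 673.5, 491, 557 and 659 in knockout, against 618, 643 and 831 in wild type, and Mcl1 had 1623, 1510.4, 1691 and 1739.9 in knockout, against 1579, 1674 and 1538 in wild type. Both carry a 7mer-m8, and their log2 differences were -0.23 (95% interval -0.55 to 0.10) and 0.04 (-0.13 to 0.21). Bcl2l2, encoding BCL-W, had 49.6, 35.2, 28.3 and 48.1 in knockout, against 43.9, 13.8 and 33.7 in wild type; its difference of 0.50 was 0.03 without wild type replicate 3. Bcl2l1, encoding BCL-XL, averaged 1499 ± 142 in knockout and 1615 ± 217 in wild type. Red cell precursors also use Bcl2l1, and its highest value, 1839 in wild type replicate 2, came from the library with the largest share of haemoglobin reads (7.01%); the part of blood in it was not tested. Per kilobase of exon, the order over all 7 libraries was Mcl1 at 475 normalized counts, Bcl2l1 at 338, Bcl2 at 69.8 and Bcl2l2 at 8.09. The Bax to Bcl2 ratio of normalized counts, a common index of readiness for apoptosis, was 1.80, 2.53, 2.20 and 1.68 in knockout, against 2.06, 1.81 and 1.48 in wild type, with overlap.

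The inhibitors of apoptosis Xiap and Birc2 and the antagonist Diablo had lower mean log2 values in knockout, as 48.3% of all genes did, and none of the 3 passed the test. Xiap, a direct inhibitor of caspases, had 254, 263, 277 and 270.4 in knockout, against 308, 347 and 295 in wild type. No library crossed between groups, and the log2 difference was small at -0.25 (SE 0.13, unadjusted p 0.086, adjusted p 0.552). Diablo, which relieves XIAP inhibition, had 1309, 1325, 1406 and 1423 in knockout, against 1405, 1568 and 1508 in wild type, with knockout replicates 3 and 4 just above the lowest wild type library (-0.13, -0.30 to 0.04); 40.9% of its exonic length is shared with other genes. Birc2, a ubiquitin ligase of TNF receptor signalling with a 7mer-m8, had 417, 472, 494 and 389 in knockout, against 403, 482 and 492 in wild type, and -0.05 on the log2 scale (95% interval -0.34 to 0.24). The difference of Birc2 was 0.0084 without knockout replicate 4 and 0.0014 without wild type replicate 4.

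Sorted by seed match, the genes did not move as a block. Of the 9 genes with an 8mer or a 7mer-m8, 5 had higher and 4 lower mean log2 values in knockout (median 0.04); of the 26 with neither an 8mer nor a 7mer-m8, 9 had higher values (median -0.11). The 3 genes with an 8mer ran from -0.52 for Zmat3 to 0.81 for Pmaip1, and the 6 with a 7mer-m8 from -0.23 for Bcl2 to 0.57 for Apaf1. Apaf1, with the smallest unadjusted p among the 35, and Pmaip1, with the largest difference, carry a 7mer-m8 and an 8mer and were higher. Zmat3, Bcl2, Casp2 and Birc2 carry a match too and had lower mean log2 values, with Zmat3 at -0.52. Bok, Mdm2, Ccng1, Cycs and Xiap hold no such match. A shorter type of match, TGAAGGA outside an 8mer (7mer-A1), was found in 8 of the 35 genes (22.9%), against 1759 of the 13541 tested genes (12.99%). It was present in Mdm2 and Xiap as well as in Bcl2l1, Bbc3, Bmf and Casp9, none of which holds an 8mer or a 7mer-m8, and beside a 7mer-m8 in Bcl2 and Casp2. Whether a match and a difference are connected was not tested.

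**Figure D5:**
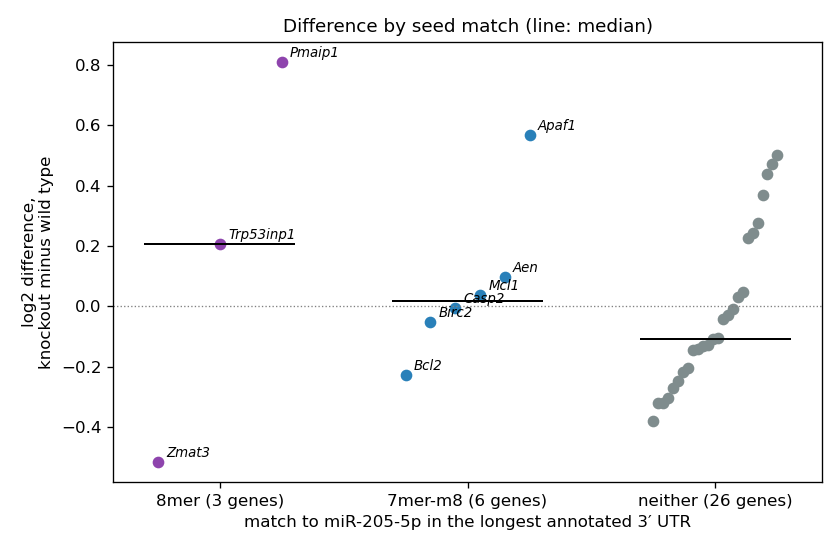
The log2 difference of each gene (y axis, knockout minus wild type) is shown by the match to miR-205-5p in its longest annotated 3′ UTR (x axis: 8mer, 7mer-m8 or neither); lines are medians. Genes with an 8mer or a 7mer-m8 lie on both sides of 0, Apaf1 and Pmaip1 at the top and Zmat3 at the bottom.

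Other genes of the same pathways are given for comparison, from lists made by known role. Of 31 tested further p53 targets, 0 were called by limma-trend. At an unadjusted p of 0.05, 2 were higher and 2 lower, where 5.44% of all genes were higher and 4.34% lower. The authors' deposited table called 2 of the 28 with an adjusted p, both higher (background 1.43%). These were Trp53i11, with 2401 ± 378 in knockout and 1686 ± 307 in wild type (log2 difference 0.51), and the stress kinase gene Plk3, with 169 ± 82.0 and 71.3 ± 20.9 (1.16). Lower at an unadjusted p of 0.05 were the desmosomal gene Perp (-0.39) and Phlda3 (-0.38), which encodes an inhibitor of AKT; Perp is also 1 of the 21 ectoderm markers, whose mean was lowest in knockout replicates 1 and 2. The list's median log2 difference was -0.10.

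Among 19 tested regulators of p53, 0 were called by limma-trend, with 0 higher (background 5.44%) and 3 lower (background 4.34%) at an unadjusted p of 0.05 and a median log2 difference of -0.02. The 3 were Rpl5, with 6040 ± 220.5 in knockout and 7138 ± 516 in wild type (-0.24), Rpl11, with 4008 ± 324 and 4823 ± 204 (-0.27), and the acetyltransferase gene Crebbp (-0.21). RPL5 and RPL11 are ribosomal proteins that bind and restrain MDM2, and the authors' deposited table called both as lower, 2 of 19 (background 1.4%), with adjusted p of 0.0388 and 0.0535. Reads of ribosomal protein genes can be lost to near-identical copies, so these values are uncertain.

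Of 27 tested further apoptosis genes, 0 were called by limma-trend, with 3 higher (background 5.44%) and 2 lower (background 4.34%) at an unadjusted p of 0.05 and a median log2 difference of -0.04. Ripk1, a kinase that steers TNF receptor signalling towards survival or death, had 164, 166, 187 and 165 in knockout, against 91.5, 103 and 105 in wild type. These groups were far apart for their spread (log2 difference 0.77, SE 0.18, adjusted p 0.312), and the authors' deposited table gives an adjusted p of 0.00381, its 1 call among 26 of these genes (background 2.83%). Casp6, an effector caspase gene, averaged 941 ± 130.0 in knockout and 1222 ± 210.1 in wild type (-0.37). Tradd, the adaptor of the same receptor complex as Ripk1, was lower at 196 ± 27.9 against 264 ± 10.8 (-0.43). Hrk, a BH3-only gene of neurons, had 29.3, 46.2, 3.54 and 10.5 in knockout, against 0, 0.860 and 6.55 in wild type, in a setting where all 15 neural genes had higher mean log2 values in knockout. It is 1 of the 3 higher genes and reached the mean of 10 normalized counts in the knockout group only; the part of neural tissue in its values was not tested.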

How the data were processed

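Reads had been mapped with TopHat2 2.0.9 to GRCm38, counted per Ensembl gene with HTSeq and tested with DESeq2, per the submitters' processing notes. The sources used here give no strand setting, so reads of a gene and of one overlapping it on the other strand are not separable. Besides Gadd45a, Bak1 and Diablo, exonic length was shared with other genes in Bad (20.5%), Bid (17.7%), Bcl2l2 (13.3%) and Bax (12.2%). Smaller shares were found in Cdkn1a (7.68%), Bcl2 (6.09%) and Casp9 (1.81%). The signal values are the authors' normalized counts, the log2 column is the authors' fold change of knockout over wild type, and the p-value columns are the authors' p and adjusted p. Reads were recovered by dividing each library's values by its lowest non-zero value; 100% of non-zero values were then whole within 0.01 read. Differences were tested with limma-trend (limma 3.58.1 under R 4.3.3, robust moderation) on log2(normalized count + 1), which understates changes of low genes, with Benjamini-Hochberg adjustment over 15029 genes and a threshold of 0.1. Alternatives were edgeR 4.0.16 (quasi-likelihood) and DESeq2 1.42.0 on recovered reads, other pseudocounts, filters and scaling, a depth covariate, a replicate block and left-out libraries. The fits were tested on simulated data. Each library was a separate pool of 3 embryos, per the labels' protocols. The members and lists were chosen with earlier results of these data known. All 35 members are named, with values per library for Trp53, Mdm2 and Cdkn1a, members with an unadjusted p under 0.05, the 2 smallest p of each role, and members with a seed match. Of the other lists, genes with an unadjusted p under 0.05 are named; the rule as first written took the 2 smallest p of each list, and the rest were added after their values were seen. One gene among these is not reported here.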

Additional observations from a re-analysis of the deposited data

Results flagged for a closer look

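Among the 4 knockout libraries, Apaf1 had 402 normalized counts in replicate 2 and 333 to 344 in the other 3. The gap from replicate 2 to its nearest neighbour was 0.843 of the whole range, above Dixon's critical value for 4 samples. All 35 members were screened in this way and Apaf1 alone was marked; chance marks about 1 in 20 groups. That library also had the highest mean log2 values of the skeletal muscle (9.01), endothelial (8.10), neural (8.47) and macrophage genes (7.33), whose part in this was not tested. Without knockout replicate 2 the log2 difference of Apaf1 was 0.50, against 0.57 with all libraries.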

How the results depend on the processing

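No member passed an adjusted p of 0.1 under limma-trend or edgeR in any setting, leaving out single libraries included (0 to 0); DESeq2 called 2. Over all genes, limma-trend called 0, against 223 by DESeq2, 2 with values above 10 in all 7 libraries, 3 with the replicate block, 3 without knockout libraries 1 and 2, and 0 to 83 without 1 library, the highest without wild type replicate 2. The median log2 difference of the members was between -0.0932 and 0.0294 without 1 library; it turned above 0 without wild type replicate 3. Of 591 member values under 17 alternatives, 559 kept direction and side of the threshold, 2 (Apaf1 and Ccng1 with DESeq2) passed it and 30 had the opposite sign, in 9 members. The log2 difference with edgeR was 0.16 for Eda2r and 0.0041 for Bmf, and with DESeq2 0.18 and 0.015. With depth as a covariate Bmf was at 0.015 and Casp2 at 0.021. Without knockout libraries 1 and 2, Trp53 was at 0.075 and Casp2 at 0.088. With the replicate block, over replicates 2 to 4 of both groups, Eda2r was at 0.21, Bmf at 0.045 and Casp2 at 0.031. The numbers are not shown to pair the libraries: deviations of same-numbered libraries correlated at 0.0965, 0.111 and -0.011. Without 1 library the sign changed in Trp53 (-0.14 to 0.066), Aen (-0.020 to 0.17), Eda2r (-0.52 to 0.31), Bax (-0.062 to 0.0068), Bmf (-0.14 to 0.13), Casp9 (-0.14 to 0.13), Casp2 (-0.075 to 0.095), Casp8 (-0.20 to 0.038) and Birc2 (-0.14 to 0.0084); the cause was not tested.
With 4 and 3 libraries, the median 95% interval of a member reached 0.33 to either side on the log2 scale. Differences smaller than this were often not detectable even at an unadjusted p of 0.05. At an adjusted p of 0.1, limma-trend did not call larger ones either, such as 0.81 for Pmaip1 and 0.57 for Apaf1.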
